A study of Mus musculus with 4 samples.

Results

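The MiT/TFE transcription factors Tfeb, Mitf and Tfec, 5 genes that control where these factors sit in the cell (Flcn, Fnip1, Fnip2, Rragc and Rragd) and 2 of their known target genes (Gpnmb and Sqstm1) were examined in mouse embryonic stem cells. The 10 genes were chosen by name, for their known roles, and make up 10 of 46603 gene IDs in the table. RNA was sequenced from 2 Gsk3a-/-;Gsk3b-/- samples, which lack both forms of glycogen synthase kinase 3, and from 2 wild-type (Gsk3a+/+;Gsk3b+/+) samples. All 4 samples were grown in serum with leukaemia inhibitory factor on gelatin and irradiated mouse embryonic fibroblasts, so fibroblast RNA may be present in each. Embryonic day 16 is given in the labels and E15 in the design text, and neither says how many clones the knockout samples represent. The table compares a group A with a group B and does not name the genotype of either, so each fold change is of B over A and no genotype is assigned to either.

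MiT/TFE factors bind short E-box sequences in the promoters of genes for lysosomes and autophagy and switch them on. When amino acids are plentiful, the folliculin complex (Flcn with Fnip1 or Fnip2) acts on the GTPases RagC and RagD, which bring Tfeb to the kinase mTORC1 on the lysosome, and the phosphorylated factor is held in the cytoplasm. Glycogen synthase kinase 3 is also known to phosphorylate Tfeb and Mitf. Several of the regulators are themselves targets of the factors, which closes a feedback loop, and in mouse embryonic stem cells folliculin is known for its part in the exit from pluripotency.

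Levels are normalized counts, that is, reads corrected for sequencing depth by a size factor for each library. The table gives the mean of each group, from which the whole read counts of the 2 libraries behind it were recovered. They are called B1, B2, A1 and A2, a numbering that carries no replicate number from GEO. Their totals ranged from 112655210 to 146326307 reads. Gsk3a, 1 of the genes the study deleted, had normalized counts of 1697 and 1347 in B1 and B2, against 6353 and 7104 in A1 and A2, and Gsk3b had 5051 and 5002 in B1 and B2, against 5438 and 6285 in A1 and A2. By the authors' deposited table the log2 fold change was -2.14 for Gsk3a (adjusted p 4.9e-24). For Gsk3b it was -0.22, which did not pass (adjusted p 0.984). Stem cell markers were high in every library, with a summed normalized count of 721553 and 727186 for 8 markers in B1 and B2, against 774618 and 820626 in A1 and A2. Both B libraries lay below both A libraries for 5 of the 8 and above them for 0. Of all genes whose mean normalized count reached 10, 26.0% lay below and 26.4% above in this way. The median log2 fold change of the 8 was -0.29. Every one of the 2601 genes annotated on the X chromosome was listed at 0, as were those on Y and in the mitochondrion, while on the autosomes 78.6% to 96.5% of protein-coding genes had a count. Tfe3, the remaining member of the family and an X-linked gene, therefore has no value here.

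Of the 10 genes, 1 was called higher (Gpnmb) and 1 lower (Mitf) in group B at an adjusted p under 0.05 in the authors' deposited table. Over all 30237 genes tested, 1.54% were called higher and 1.92% lower, or 3.46% in either direction. In limma on the recovered counts the same 2 genes passed, where 0.977% of 20465 genes were called higher and 1.03% lower (2.01% in either direction). The median log2 fold change of the 10 was 0.28, against 0.01 over all genes. Both B libraries lay above both A libraries for 6 of the 10 genes and below them for 2, against 26.4% and 26.0% of the genes whose mean normalized count reached 10. The design text calls the 2 samples of a genotype biological replicates, and with 2 libraries a group the tests rest on little information about their spread.

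**Figure D1:**
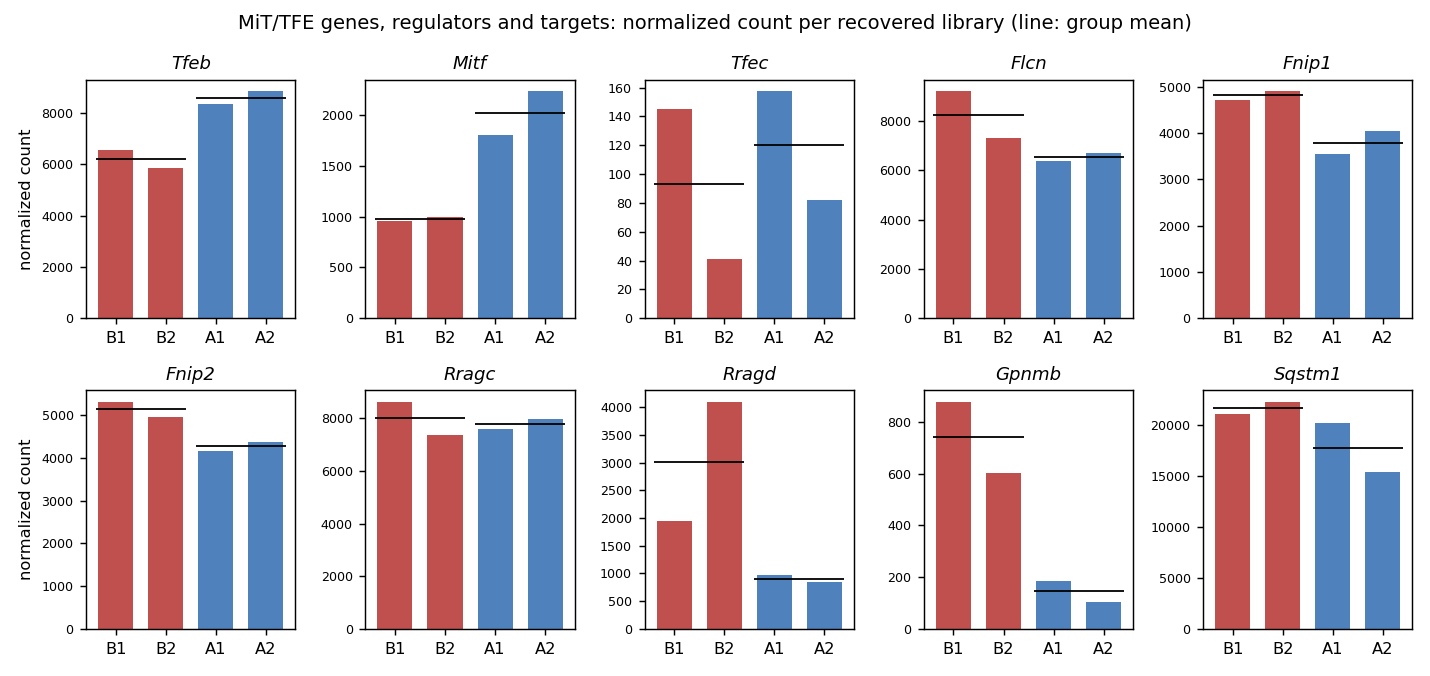
Normalized count of each of the 10 genes (vertical axes, each from 0) as a bar for each of the libraries B1 and B2 (red) and A1 and A2 (blue), with a line at each group mean. Mitf sits at 952 and 1000 in group B and at 1802 and 2234 in group A, and Gpnmb at 877 and 604 in group B and at 186 and 105 in group A.

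Among the factors, Mitf was lower in group B, Tfeb did not pass the test although both B libraries lay below both A libraries, and Tfec was scarce and its groups overlapped. Mitf (ENSMUSG00000035158, chromosome 6, 97807052 to 98021349, mm10), the family member that specifies pigment cells and also acts in osteoclasts, had normalized counts of 952 and 1000 in B1 and B2, against 1802 and 2234 in A1 and A2. The groups did not overlap, and the B mean of 976 was 51.6% below the A mean of 2018. Mitf had a log2 fold change of -1.05 and an adjusted p of 0.000105 by the authors' deposited table, and -1.04 in limma (SE 0.17, adjusted p = 0.0476). Left out in turn, the A libraries each took the limma adjusted p of Mitf past the threshold, to 0.190 without A1 and 0.365 without A2, and the log2 fold change was then -1.19 and -0.88. In those fits limma called 0 of 20465 genes, with 2420 and 2034 at an unadjusted p under 0.05.

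Tfeb (ENSMUSG00000023990, chromosome 17, 47737030 to 47792419), the main activator of lysosomal genes in many cell types, had normalized counts of 6578 and 5858 in B1 and B2, against 8345 and 8856 in A1 and A2. Both B libraries were below both A libraries, but the difference did not pass (log2 fold change -0.47 and adjusted p 0.207 by the authors' deposited table). By limma it was -0.47 (SE 0.11, adjusted p = 0.0948). Tfec (ENSMUSG00000029553, chromosome 6, 16833373 to 16898441), a family member best known from macrophages, had 158 and 35 reads in B1 and B2, against 171 and 83 in A1 and A2. Its normalized counts were 145 and 41.4 in B1 and B2, against 158 and 82.1 in A1 and A2. The groups overlapped, B1 exceeded B2 by 3.50 times and A1 exceeded A2 by 1.92 times. By the authors' deposited table Tfec stood at -0.36 on the log2 scale (adjusted p 1), and it turned to 0.35 in limma without B2.

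Levels of different genes can be compared per length, as normalized counts per kilobase of exon. On that scale Tfeb made up 86.6% and 86.0% of the summed level of the 3 factors in B1 and B2, against 82.2% and 80.6% in A1 and A2. Mitf made up 11.5% and 13.4% in the B libraries, against 16.2% and 18.6% in the A libraries. The summed level was 1340 and 1202 normalized counts per kilobase in B1 and B2, against 1791 and 1937 in A1 and A2. All B values lay on one side of all A values for each of these 3 measures, which with 2 libraries a group cannot reach a small p in a permutation test, so none is given.

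For the 3 genes of the folliculin complex both B libraries lay above both A libraries, and none passed the test. Flcn (ENSMUSG00000032633, chromosome 11, 59791408 to 59810016) encodes folliculin, the activator of RagC and RagD GTP hydrolysis, and had normalized counts of 9204 and 7301 in B1 and B2, against 6381 and 6709 in A1 and A2. The log2 fold change was 0.33 (adjusted p 0.522 by the authors' deposited table), and the distance between B1 and B2, also 0.33 on the log2 scale, was as large. In limma Flcn was at 0.16 without B1 and 0.49 without B2. Fnip1 (ENSMUSG00000035992, chromosome 11, 54438199 to 54518235), a folliculin partner, had 4728 and 4911 in B1 and B2, against 3553 and 4045 in A1 and A2. By the authors' deposited table this was 0.34 on the log2 scale (adjusted p 0.551). Fnip2 (ENSMUSG00000061175, chromosome 3, 79455974 to 79567796), the other partner, had 5311 and 4953 in B1 and B2, against 4153 and 4378 in A1 and A2 (log2 fold change 0.27 and adjusted p 0.798 by the authors' deposited table). Per kilobase, Fnip1 and Fnip2 were present at nearly equal levels in every library, with a ratio of Fnip1 to Fnip2 of 1.05 and 1.17 in B1 and B2, against 1.01 and 1.09 in A1 and A2.

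Neither Rag gene passed the authors' test, and the groups overlapped for Rragc but not for Rragd. Rragc (ENSMUSG00000028646, chromosome 4, 123917446 to 123936997) encodes RagC and had 8625 and 7370 normalized counts in B1 and B2, against 7597 and 7953 in A1 and A2. These values overlapped, with a log2 fold change of 0.04 (adjusted p 1 by the authors' deposited table) and of 0.04 (SE 0.12) in limma, and -0.08 in limma without B1. Rragd (ENSMUSG00000028278, chromosome 4, 32983037 to 33022180) encodes RagD, which pairs with RagA or RagB as RagC does. It had 1939 and 4097 normalized counts in B1 and B2, against 973 and 838 in A1 and A2. Both B libraries stood above both A libraries, but B2 was 2.11 times B1. The B mean of 3018 was 3.33 times the A mean of 906, and the adjusted p was 0.455 in the authors' deposited table (log2 fold change 1.74).

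In limma Rragd had a log2 fold change of 1.64 (SE 0.35, adjusted p = 0.0766), over the threshold, with the B libraries 1.08 apart on the log2 scale and the A libraries 0.21. Left out in turn, either B library brought it past the threshold in limma, with a log2 fold change of 2.18 without B1 (adjusted p = 0.00964) and 1.10 without B2 (adjusted p = 0.0297). In those fits the lone B library is assumed to vary as the A libraries do. Per kilobase, RagD messages made up 12.7% and 26.4% of the sum of Rragc and Rragd in B1 and B2, against 7.64% and 6.38% in A1 and A2. Rragc was thus the more abundant of the pair in each library.

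The promoter windows of the 10 genes, 250 bases before to 50 after each start in RefSeq (GRCm38.p6, the assembly that mm10 denotes), were searched on both strands for the E-box CACGTG, its longer form TCACGTGA and the M-box core CATGTG. All 10 genes matched, with 14 windows. CACGTG was found in windows of 2 genes, Fnip1 and Rragc, against 8.09% of 27025 genes, and TCACGTGA and CATGTG in none, against 1.12% and 15.9% of genes. TCACGTGA contains CACGTG. The stretches around the 2 matches are printed with the E-box in capitals (chr11:54438059-54438154 and chr4:123917276-123917371, plus strand), because they hold the sequence that MiT/TFE factors are known to bind. The 100 bases before the start of Gpnmb and of Rragd (chr6:49036418-49036517 and chr4:32982898-32982997, plus strand) are printed as those of the genes with the largest fold changes in the list, and they are in lower case throughout because none of the motifs occurs in them.
Fnip1: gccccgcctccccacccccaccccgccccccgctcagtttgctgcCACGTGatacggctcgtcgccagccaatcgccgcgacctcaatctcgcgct
Rragc: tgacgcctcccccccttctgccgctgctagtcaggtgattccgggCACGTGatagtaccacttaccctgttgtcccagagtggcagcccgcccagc
Gpnmb: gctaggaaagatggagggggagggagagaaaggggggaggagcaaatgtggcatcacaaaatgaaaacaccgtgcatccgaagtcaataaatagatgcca
Rragd: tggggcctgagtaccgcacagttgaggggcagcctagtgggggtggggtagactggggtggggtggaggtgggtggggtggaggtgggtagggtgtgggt

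The E-box centre lies 72 bases before the start in Fnip1 and 109 bases before it in Rragc, and the longest run that the stretches share around it is 9 bases, CACGTGATA. Neither gene passed the test between the groups. Gpnmb and Rragd, at 2.35 and 1.74 on the log2 scale by the authors' deposited table, had none of these motifs in this window, which says only that these letters are not in it.

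Of the target genes, Gpnmb was higher in group B and Sqstm1 did not pass the test. Gpnmb (ENSMUSG00000029816, chromosome 6, 49036546 to 49070929), a glycoprotein of lysosomes and melanosomes that is used as a readout of MiT/TFE activity, had 957 and 511 reads in B1 and B2, against 202 and 106 in A1 and A2. Its normalized counts were 877 and 604 in the B libraries, against 186 and 105 in the A libraries, so the lowest B value was over the highest A value. The B mean of 741 was 5.09 times the A mean of 145. Gpnmb had a log2 fold change of 2.35 (adjusted p 0.000169) by the authors' deposited table and of 2.37 (SE 0.35, adjusted p = 0.0412) in limma. Leaving out A1 or A2 took the limma adjusted p of Gpnmb to 0.169 and 0.312, the same fits in which limma called no gene, with log2 fold changes of 2.78 and 1.96.

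Sqstm1 (ENSMUSG00000015837, chromosome 11, 50199366 to 50210827) encodes p62, the autophagy receptor that carries ubiquitinated cargo, and it was the most abundant of the 10 genes per kilobase. It had 21072 and 22226 normalized counts in B1 and B2, against 20152 and 15350 in A1 and A2. Both B values were above both A values, but A1 was nearer to B1 than to A2. The log2 fold change was 0.29 (adjusted p 0.774 by the authors' deposited table), and in limma it was 0.30 with all libraries, 0.10 without A2 and 0.50 without A1. Exons of Mrnip on the opposite strand cover 17.3% of the Sqstm1 exons, and since no source used here says whether counting used strand, reads in that stretch cannot be told apart between the 2 genes. The mean of Mrnip was 433, against 19700 for Sqstm1.

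**Figure D2:**
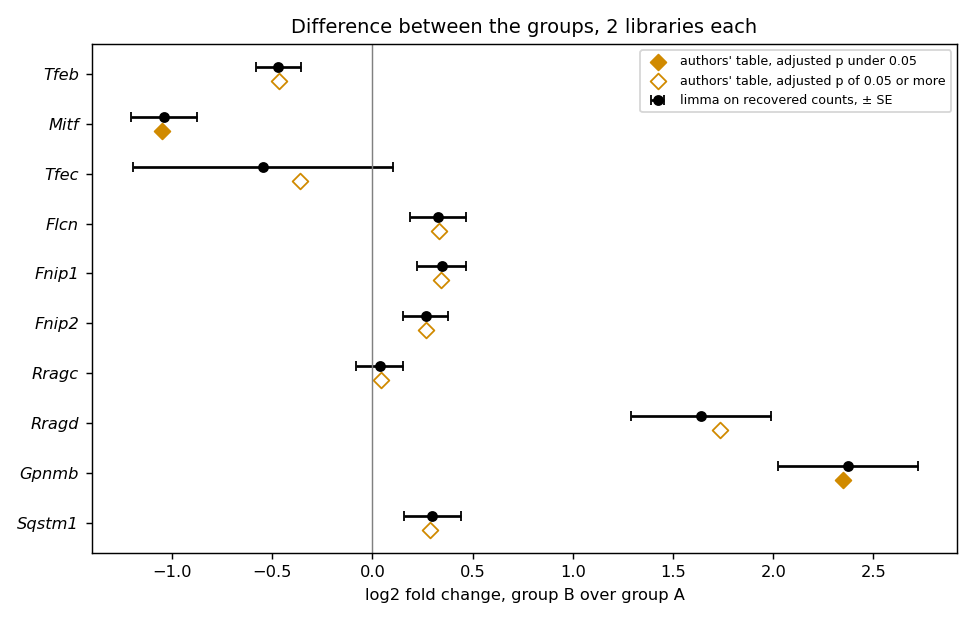
Log2 fold change of group B over group A for the 10 genes (horizontal axis), from the authors' deposited table (diamonds, filled where the adjusted p is under 0.05) and from limma on the recovered counts (points, bars of 1 SE). Mitf at -1.05 and Gpnmb at 2.35 are the filled diamonds, and Tfec has the widest bar (SE 0.65).

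Across the libraries the 10 genes covered a wide range of levels. Sqstm1 had 4574 to 6623 normalized counts per kilobase over the 4 libraries and lay apart from Rragc, with 2206 to 2582, which in turn lay apart from Flcn, with 1476 to 2129. Flcn and Tfeb (1033 to 1562) overlapped. Fnip1 (499 to 690), Fnip2 (497 to 635) and Rragd (162 to 792) could not be ordered beyond their spread, and Rragd overlapped Mitf (154 to 360). Gpnmb (16.1 to 135) and Tfec (7.40 to 28.2) were lowest and overlapped each other. The order of Rragd and Mitf turned round between the groups: Rragd had 375 and 792 per kilobase in B1 and B2 and Mitf 154 and 161, whereas in A1 and A2 Rragd had 188 and 162 and Mitf 291 and 360.

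**Figure D3:**
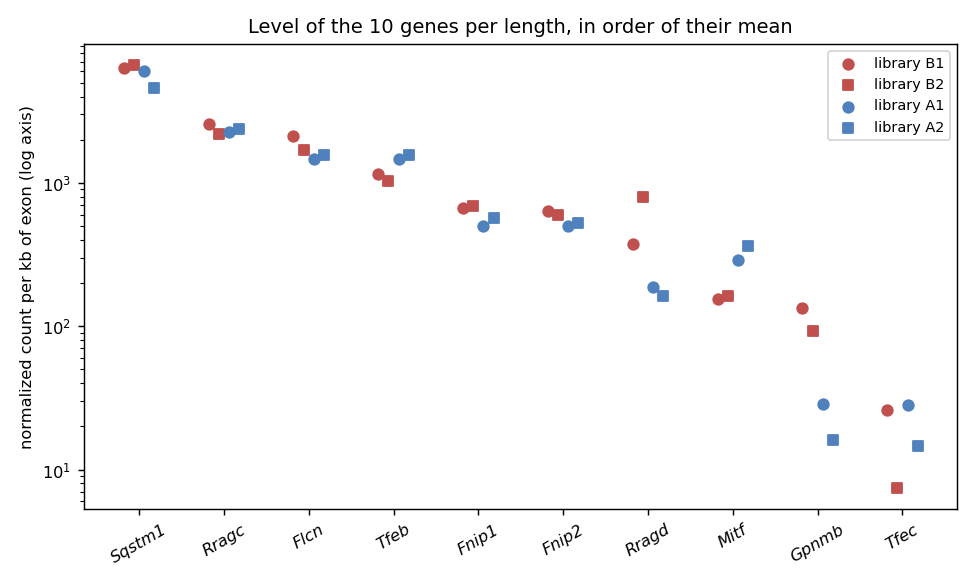
Normalized count per kilobase of exon (vertical log axis) of the 10 genes in order of their mean, with libraries B1 and B2 in red and A1 and A2 in blue. Sqstm1 is highest at 4574 to 6623 and Tfec lowest at 7.40 to 28.2, and Mitf is lower and Rragd and Gpnmb are higher in the red libraries.

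The other genes that control Tfeb, such as subunits of mTORC1, Ragulator, GATOR1 and calcineurin and the 14-3-3 proteins, mostly did not pass the test. Of 32 such genes with a count, 0 were called higher and 2 lower in the authors' deposited table, with 2 on each side at an unadjusted p under 0.05, and limma called 0 higher and 1 lower. Their median was 0.02 on the log2 scale, against 0.01 over all genes whose mean reached 10. Over all genes tested, 1.54% were called higher and 1.92% lower in the authors' deposited table, and 0.977% and 1.03% in limma. The 2 control genes called lower were Gsk3a itself and Lamtor3, a Ragulator subunit that helps to hold the Rag GTPases on the lysosome. Gsk3a, 1 of the genes the study deleted, was the 1 that limma called lower (adjusted p = 0.0255). Lamtor3 had 1997 and 1946 normalized counts in B1 and B2, against 2951 and 3127 in A1 and A2 (log2 fold change -0.62 and adjusted p 0.0392 by the authors' deposited table; limma adjusted p = 0.0670). The most abundant of these genes were Ywhae, a 14-3-3 protein, with a log2 fold change of -0.04, and Xpo1, the exportin that carries Tfeb out of the nucleus, with -0.02 (adjusted p 1 for both by the authors' deposited table). Tfe3 and Rragb, both X-linked, were listed at 0.

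Genes of the CLEAR network, the lysosomal and autophagy genes known as Tfeb targets, lay mostly above 0. Of 45 with a count, 6 were called higher and 1 lower in group B in the authors' deposited table, and limma called 4 higher and 0 lower, with 13 and 1 at an unadjusted p under 0.05 in that table. Over all genes tested, 1.54% were called higher and 1.92% lower in that table, and 0.977% and 1.03% in limma. The median log2 fold change was 0.24 over the 43 whose mean reached 10, against 0.01 over all genes, and 72.1% of the 43 were above 0, against 51.3% of all genes. B1 and B2 both exceeded A1 and A2 for 25 of the 43, or 58.1%, against 26.4% of all genes. The list shares genes with a lysosomal list already examined in these data, so these counts are a description and not separate evidence.

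Of those called higher, 4 are described, all lysosomal enzymes. Hexa, a subunit of beta-hexosaminidase, had 20043 and 28268 normalized counts in B1 and B2, against 10067 and 8726 in A1 and A2 (log2 fold change 1.36 and adjusted p 0.0130 by the authors' deposited table). Among the proteases, Ctsa, Tpp1 and Ctsb had log2 fold changes of 0.99 (adjusted p 1.17e-05), 0.83 (0.000681) and 0.77 (0.00157) in the authors' deposited table. In limma Ctsa lost its call (adjusted p = 0.0503), and the 4 genes that limma called were Hexa, Tpp1, Ctsb and Lamp1. The gene called lower was Ctsf, another cathepsin, with 1153 and 1131 in B1 and B2, against 2160 and 1779 in A1 and A2 (log2 fold change -0.79 and adjusted p 0.00471 by the authors' deposited table; limma adjusted p = 0.0702). Lamp1, a major lysosomal membrane protein and the most abundant of the list, had 88399 and 89614 in B1 and B2, against 62256 and 61749 in A1 and A2. It missed the threshold in the authors' deposited table (log2 fold change 0.52, adjusted p 0.0868) and passed in limma (0.52, SE 0.07, adjusted p = 0.0320). Ctsd, the next in abundance, had a log2 fold change of 0.25 (adjusted p 0.954 by the authors' deposited table).

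Of the known targets of Mitf in pigment cells and osteoclasts, 1 passed the test. Of 14 pigment genes with a count the authors' deposited table called 0 higher and 1 lower, at an unadjusted p under 0.05 it had 1 higher and 2 lower, and limma called 0. The median was -0.03 on the log2 scale. Over all genes tested, 1.54% were called higher and 1.92% lower in the authors' deposited table, and 0.977% and 1.03% in limma. The gene called lower was Rab27a, which tethers melanosomes and other secretory granules, with 1389 and 972 normalized counts in B1 and B2, against 1960 and 2206 in A1 and A2 (log2 fold change -0.82 and adjusted p 0.0129 by the authors' deposited table; limma adjusted p = 0.104). Trpm1, a cation channel gene first known from melanocytes, had 3068 and 8069 in B1 and B2, against 1043 and 662 in A1 and A2. As with Rragd, the groups did not overlap, B2 was the highest, and the difference did not pass (log2 fold change 2.71 and adjusted p 0.394 by the authors' deposited table). Cdk2, the most abundant of the list and a cell-cycle kinase, stood at -0.03 on the log2 scale by the authors' deposited table, with an adjusted p of 1. The defining pigment enzymes Tyr, Tyrp1 and Dct had normalized counts of at most 4.94 in any library. The melanosome genes Pmel and Mlana were detected in every library. Pmel, which forms melanosome fibrils, had 950 and 1271 in B1 and B2, against 1610 and 1511 in A1 and A2, and Mlana had 488 and 480 in B1 and B2, against 410 and 374 in A1 and A2. Neither passed (log2 values of -0.49 and 0.30, adjusted p 0.182 and 0.948 by the authors' deposited table). Of 8 osteoclast targets 0 were called in either direction in the authors' deposited table or in limma, while 2 were higher and 1 lower at an unadjusted p under 0.05 in that table (median log2 fold change 0.12). Clcn7, a lysosomal chloride transporter, had 0.40 (adjusted p 0.355) and Ostm1, its partner, -0.20 (adjusted p 1) in the authors' deposited table.

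**Figure D4:**
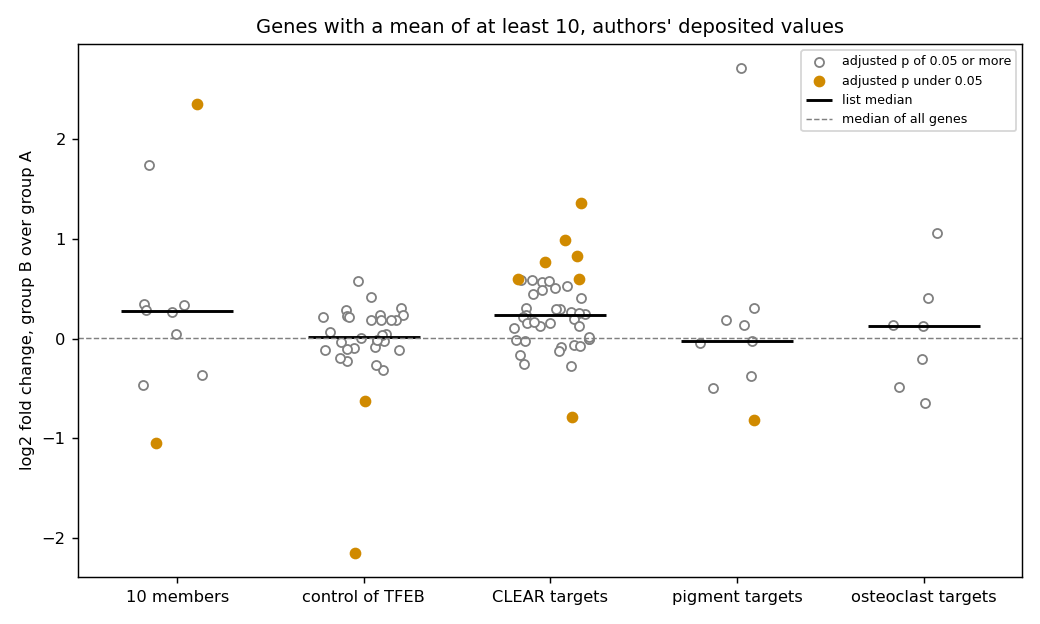
Log2 fold change of group B over group A in the authors' deposited table (vertical axis) for the 10 genes and 4 lists of related genes whose mean reached 10, filled where the adjusted p is under 0.05, with a bar at each list median and a dashed line at the median of all genes. CLEAR targets have a median of 0.24, with 6 filled points above 0 and 1 below.

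Markers of other cell types were also detected, at levels that varied between the libraries. Macrophage markers, of a cell type in which Gpnmb and Tfec are known to be expressed, had a summed normalized count of 4787 and 5706 for 18 markers in B1 and B2, against 4478 and 4063 in A1 and A2. Their median was 77.5 and 113 in the B libraries, against 35.9 and 29.2 in the A libraries, and 5 were called higher (Spi1, Lyz2, Fcgr3, Fcgr1 and Ptprc) and 1 lower (Mrc1) in the authors' deposited table. Over all genes tested, that table called 1.54% higher and 1.92% lower. Limma called 2 of the markers higher (Spi1 and Lyz2) and 0 lower, against 0.977% and 1.03% of all genes. Of the 17 markers whose mean reached 10, both B libraries lay above both A libraries for 14, against 26.4% of all genes. Both B libraries lay below both A libraries for 3 (Mrc1, Cd68 and Itgam), against 26.0% of all genes. All 18 had a count in every library. Ptprc, the pan-leukocyte antigen, had 45.8 and 35.5 in B1 and B2, against 1.84 and 11.9 in A1 and A2. The part of these cells in the Gpnmb difference was not tested.

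Feeder fibroblast markers summed to 43184 and 181495 normalized counts for 15 markers in B1 and B2, against 126121 and 62068 in A1 and A2. None was at 0. The authors' deposited table called 0 of the 15, against 3.46% of all genes tested. Limma called 1 higher, Pdgfra, and 0 lower, against 0.977% and 1.03% of all genes. Pdgfra had 7979 and 3608 in B1 and B2, against 1139 and 770 in A1 and A2 (limma adjusted p = 0.0456). Both B libraries lay above both A libraries for Pdgfra alone, against 26.4% of all genes. The fibroblast sum was highest in B2, then A1, A2 and B1, and Rragd was highest in B2, then B1, A1 and A2. Endoderm markers summed to 450411 and 238078 for 18 markers in B1 and B2, against 148657 and 112262 in A1 and A2. In each library most of this sum came from the matrix genes Col4a1, Sparc, Lama1, Col4a2 and Lamb1. The endoderm sum and Gpnmb were each highest in B1, then B2, A1 and A2. The macrophage sum was highest in B2, then B1, A1 and A2. Of the 18 endoderm markers, Foxa1, an endoderm transcription factor, was the 1 called higher in the authors' deposited table, and 0 were called lower. Over all genes tested, that table called 1.54% higher and 1.92% lower. Only Afp was at 0, in B2 and A2. Limma called 4 higher (Foxa1, Sox17, Gata6 and Lama1) and 0 lower, against 0.977% and 1.03% of all genes. Of the 17 endoderm markers whose mean reached 10, both B libraries lay above both A libraries for 11, against 26.4% of all genes. Both B libraries lay below both A libraries for 2, Apob and Ttr, against 26.0% of all genes. Foxa1 had 270 and 144 in B1 and B2, against 23.0 and 30.7 in A1 and A2 (adjusted p 0.0192 in the authors' deposited table and 0.0406 in limma). Melanocyte markers summed to 10496 and 9041 for 8 markers in B1 and B2, against 10403 and 12377 in A1 and A2, most of it from Kit, which stem cells also express, and then from Pmel and Mlana, while Dct was at 0 in B1 and A2 and Tyrp1 in B2. The part of any of these cell types in the results was not tested, and in such bulk RNA fewer cells of a type and less RNA per cell cannot be told apart.

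**Figure D5:**
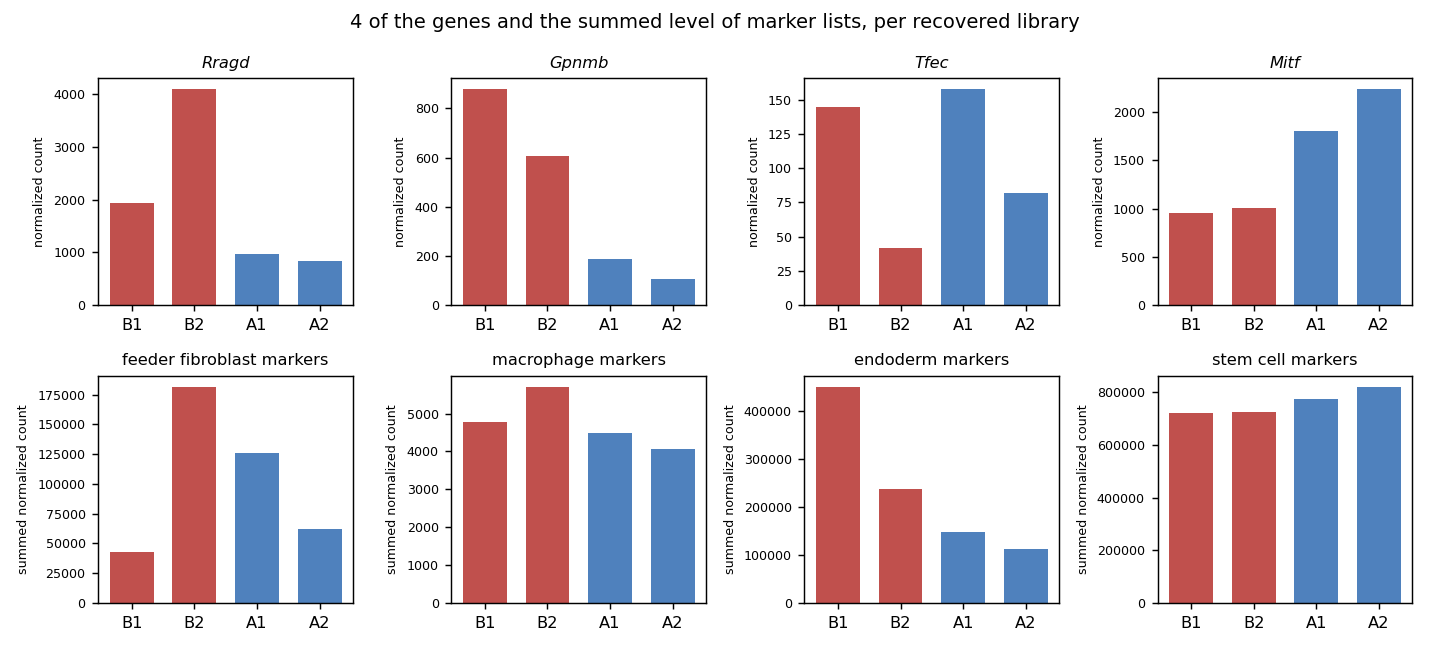
Normalized counts of Rragd, Gpnmb, Tfec and Mitf (upper row) and summed normalized counts of 4 marker lists (lower row), vertical axes from 0, as bars for libraries B1 and B2 (red) and A1 and A2 (blue). Fibroblast markers range from 43184 in B1 to 181495 in B2, and endoderm markers are highest in B1 at 450411.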

How the data were processed

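Total RNA of 4 samples was made into TruSeq stranded libraries, per the labels' protocols. The submitters' processing notes name STAR, DESeq and mm10, with no version for either tool. How reads were counted, with which strand setting and annotation, is not given in the sources used here. A single table was deposited by the authors with, per gene, mean normalized counts (a signal, the read count over the library's size factor), the fold change as a ratio and as log2, with raw and adjusted p-values, per the file headers. Of its 46608 rows, 5 repeated a gene ID and were used once.

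The authors' test was used as deposited (adjusted p under 0.05). Each group mean is a sum of whole reads of 2 libraries times 2 fixed steps. The steps gave whole counts within 1e-06 reads for every one of the 28353 genes above 0 in group B and 28616 above 0 in group A, and they equal the median-of-ratios size factors of those counts. A second pair of counts also fell inside that tolerance for 5 genes of group B and 1700 of group A, where the closest pair was taken. Recovered counts were tested with limma 3.58.1 in R 4.3.3 across 20465 genes whose mean reached 10 on log2(normalized count + 1), two-sided and with the trend option, with Benjamini-Hochberg adjustment. Such fold changes understate the change of low genes. Recovery and limma were checked on simulated counts. No count model was fitted to the recovered reads.

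All 10 genes are described. From other lists the genes past the threshold (at most 8) and the 2 most abundant are named, and among markers those called. Of the CLEAR targets past it, 2 are counted but not reported by name here. Genes, lists and alternatives were chosen with earlier results of these data known. Positions and exon lengths come from GENCODE M21, which matched 46005 gene IDs. Protein identity within the families was not analysed here.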

Additional observations from a re-analysis of the deposited data

How the results depend on the processing

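Across the 10 limma settings (all libraries, each library left out, pseudocounts of 0.5 and 5, a mean of at least 50, every gene with a count, and library totals in place of size factors), the log2 fold changes of the 10 genes kept their sign, except Rragc, which ranged from -0.0767 without B1 to 0.150 without B2, and Tfec, from -1.44 without B1 to 0.346 without B2. With 1 library left out, Flcn (0.158 to 0.492) and Sqstm1 (0.103 to 0.496) also moved by over 1.5 times from their limma value with all libraries. Rragd ranged from 1.10 to 2.18 and Fnip1 from 0.252 to 0.439 in those fits. Over the fits with 1 library left out, 0 to 2 of the 10 genes were called higher and 0 to 1 lower. Over all genes, the authors' test called 466 higher and 581 lower. At an adjusted p of 0.01 it called 295 and 379. Limma called 200 higher and 211 lower with all libraries, 193 and 204 with a pseudocount of 0.5, 244 and 251 with 5, 214 and 225 with a mean of at least 50, 211 and 201 with every gene, 208 and 240 with library totals, and 0 to 551 higher and 0 to 560 lower with 1 library left out. Counts of 0 came without A1 and without A2, where the spread rests on the B pair.

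Of the Tfeb control genes, 0 to 1 were lower with 1 library left out and 1 in each other limma setting and at 0.01, and 1 was higher at 0.10. Of CLEAR targets, 0 to 9 were higher with 1 library left out, 3 at an adjusted p of 0.01 and 10 at 0.10, and 0 were lower in any limma setting. Of pigment targets, 0 to 1 were higher and 0 to 1 lower with 1 library left out, and 0 were lower in the other limma settings and at 0.01. Of osteoclast targets, 0 to 1 were higher with 1 library left out and 1 at 0.10. With 1 library left out, the list medians ranged from -0.0268 to 0.0543 for control genes, from -0.296 to 0.258 for pigment targets and from -0.275 to 0.399 for osteoclast targets. The pigment median was -0.135 with every gene, and the osteoclast median was -0.0522 with a mean of at least 50. Medians of 7 to 9 genes near 0 are not given a direction. The cause of these changes was not tested. No paired analysis was possible because the recovered libraries carry no replicate number of the labels.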
